A study of Mus musculus with 19 samples.

Results

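The genes described here encode the cytosolic translation initiation factors (Eif1 to Eif6) and elongation factors (Eef1 and Eef2) of the mouse, with the factors' direct regulators and modifying enzymes that carry the same name stems. They were taken from the deposited expression table by symbol, as every row that begins with Eif1 to Eif6 or with Eef1 or Eef2. Rows named as pseudogenes (-ps), rows named as opposite-strand transcripts (os), Eif2s3x and Eif2s3y were left out, 6 rows in all, which left 67 of 14173 genes. RNA was sequenced from 9 single Padi6-mutant blastocysts, which came from oocytes that carried the Padi6 P620A mutation, and from 10 single Control blastocysts. PADI6 is a protein of the egg's subcortical maternal complex. The labels give no strain, age, litter or paternal genotype, and do not say whether the embryos themselves carry the allele or whether the sequenced embryos went through the outgrowth culture that they describe. Both groups went through the same RNA capture on oligo-dT beads and PCR amplification. Since nothing says which embryos shared a mother or litter, the p-values measure the spread between these embryos.

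Translation starts when a small ribosomal subunit, loaded with initiator tRNA by eIF2, is brought to the capped mRNA end by the eIF4 cap-binding factors and the eIF3 scaffold, and scans to a start codon under the control of eIF1 and eIF1A. Elongation then needs eEF1A, which delivers aminoacyl-tRNA and is recharged with GTP by the eEF1B complex, and eEF2, which moves the ribosome along the mRNA. In the preimplantation embryo this machinery is first supplied from the egg and is then transcribed from the embryo's own genome.

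Levels are given as deposited, as log2(scaled count + 1), where the counts had been scaled so that every library has the same upper quartile. Of the 67 genes, 60 were above 0 in every library and 7 were at 0 in at least 1. The median gene mean of the whole table was 9.39, and 56 of the 67 lay above it. Together the 67 genes took 2.21 to 2.95% of the scaled counts in Padi6-mutant embryos, against 2.24 to 2.85% in Control embryos, so their summed share overlapped between groups.

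Of the 67 genes, 15 were higher (22.4%, against 14.6% of all genes tested) and 6 were lower (8.96%, against 12.0% of all genes) in Padi6-mutant than in Control embryos. The test was limma's moderated test over all genes with Benjamini-Hochberg adjustment, and the threshold was an adjusted p of 0.05. In either direction 21 changed (31.3%, against a background of 26.6%), and 46 did not pass. The median log2 fold change was 0.01 for the 67 genes and -0.10 for all genes, with 34 of the 67 positive and 33 negative. The rises were spread over 6 of 11 functional groups, and the falls over 5. The shares of all genes, 14.6% higher and 12.0% lower, are also the background for the counts in each smaller group below, markers included. The split between directions depended on the scaling, since quantile normalization gave 13 higher and 14 lower, against 2017 and 1946 of all 14173 genes. Groups did not overlap for 1 gene that was higher (Eif3j2, 1.49% against a background of 2.67%) and for 0 that were lower (background 0.289%). As each library is a whole embryo, fewer cells of a type and less RNA per cell cannot be told apart.

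**Figure D1:**
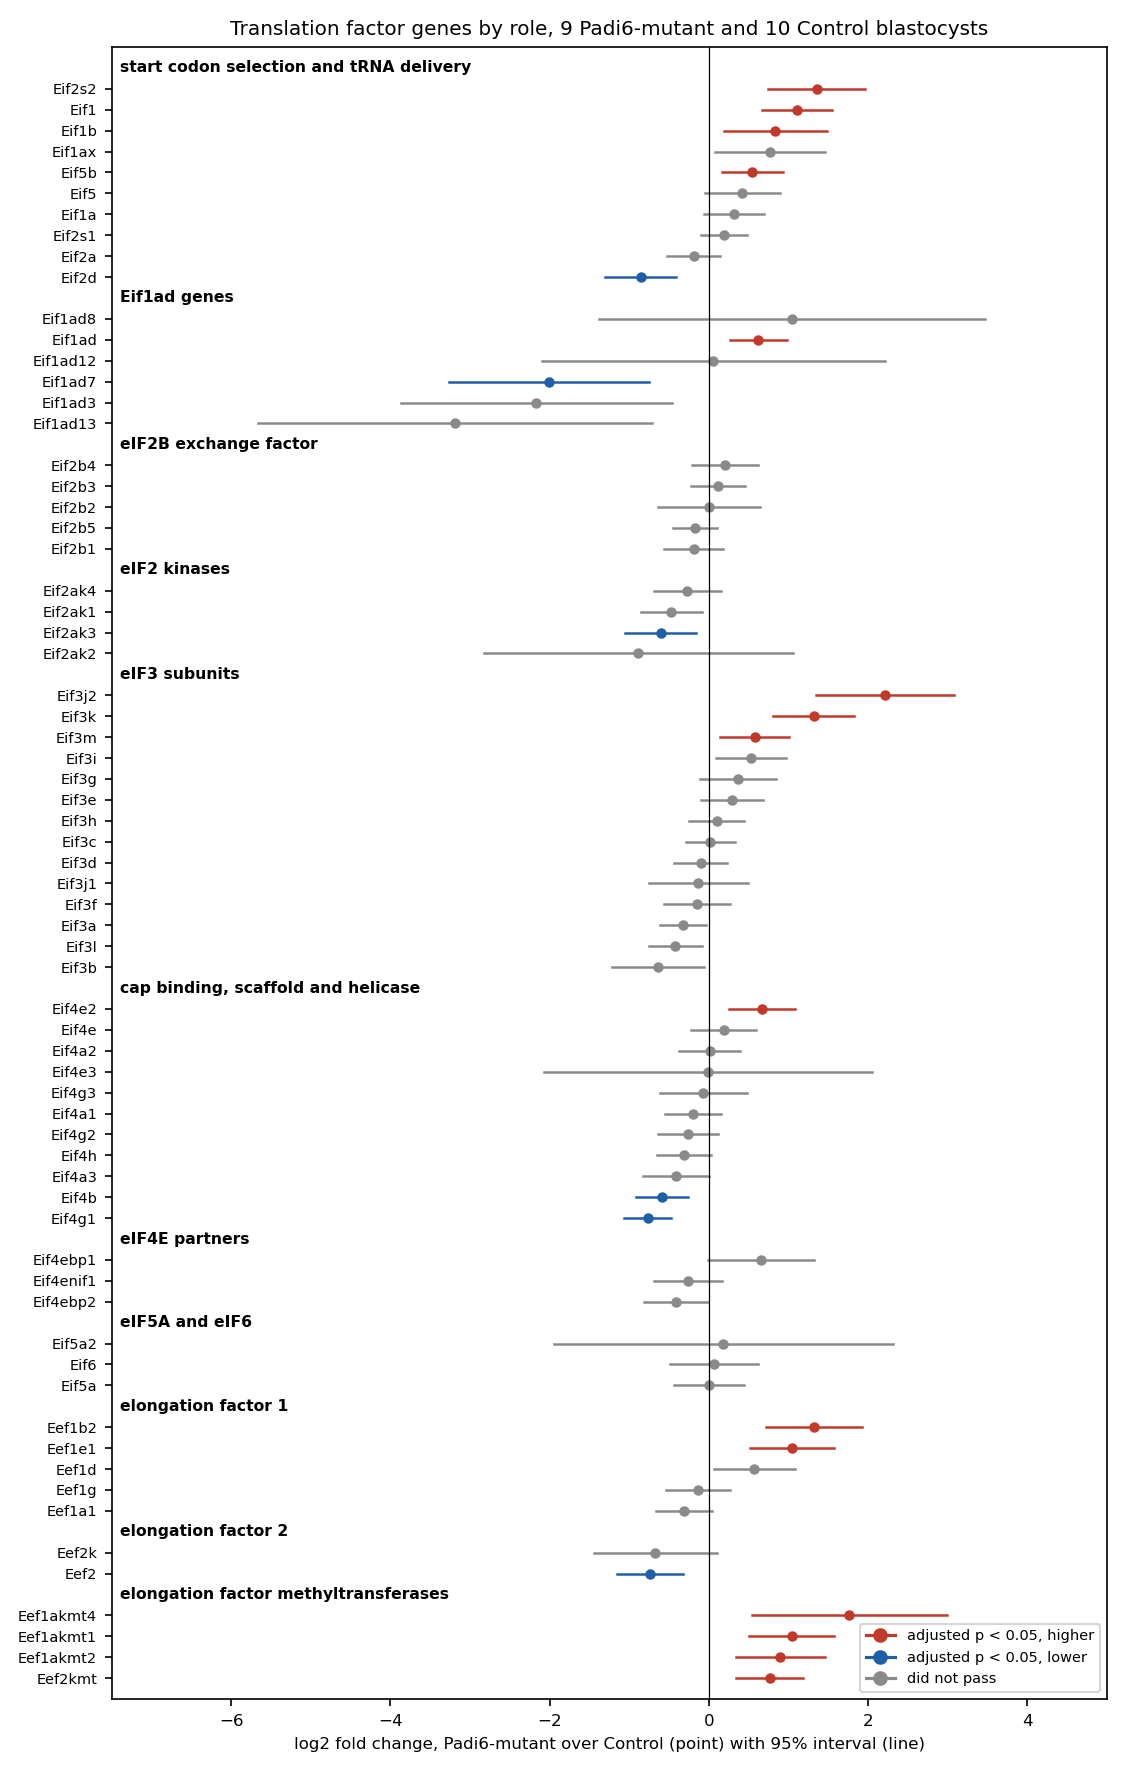
Log2 fold change of Padi6-mutant over Control embryos (x axis) for each of the 67 genes, grouped by role (y axis). Points are limma estimates and lines their 95% intervals, in red where a gene was higher (15), in blue where it was lower (6) and in grey where it did not pass (46). The 4 methyltransferase genes all lie right of 0, and the 4 eIF2 kinase genes all lie left of it with 1 past the threshold.

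The libraries were not alike in depth or in detection. Between 113 and 596 genes (median 203) were at 0 in the Padi6-mutant libraries, against 30 to 247 (median 101.5) in the Control libraries, and 4 Padi6-mutant libraries (6, 8, 9 and 10) had more than 400. Where the spacing of low values gave the size of 1 count, totals could be worked out. They were 12.1 to 30.2 M counts in 8 Padi6-mutant libraries, against 27.9 to 46.1 M in 5 Control libraries. Spacings below or close to 1, or far above it, were not searched, so a library with such a spacing could not be sized. Control 1, 2, 3, 4 and 7 and Padi6-mutant 7 were not sized, so the ranges cover only part of each group. The labels state a mean depth of 4.2 M reads, which lies below all of these totals, and which is right is not known. With gene detection (how many genes a library held above 0) fitted as a covariate, 9 of the 21 calls remained, and 6 of the 67 genes were higher and 3 lower (background 9.23% and 3.52%). Without Padi6-mutant 6, 8, 9 and 10, 13 of the 21 calls remained, and 11 genes were higher and 6 lower (background 11.9% and 6.64%). Of the inner cell mass markers 6 of 9 listed were lower, and their summed scaled counts were 60254 to 87196 in Padi6-mutant embryos and 80675 to 152988 in Control embryos. Of the primitive endoderm markers 7 of 9 were lower (31133 to 44273, against 30186 to 90030), and of the trophectoderm markers 2 of 10 were higher and 1 lower (129043 to 643417, against 278922 to 427933). Of 10 cumulus and granulosa cell markers 1 was listed, Star, at 12 to 344 scaled counts in Padi6-mutant and 41 to 382 in Control embryos, and of 7 fibroblast and blood markers 0 were listed. With the trend on length and GC content removed, Klf2 and Fgf4 of the inner cell mass no longer passed. Nor did Gata6, Sox17, Pdgfra and Col4a1 of the primitive endoderm, or Krt7, Id2 and Dppa1 of the trophectoderm. With longest transcripts Id2 and Dppa1 passed again and the others did not. Tead4 was newly lower with shortest transcripts only. The part of lineage composition in the values that follow was not tested.

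Among the 10 genes for start codon selection and delivery of the initiator tRNA, 4 rose, 1 fell and 5 did not pass, and the median log2 fold change was 0.48. Eif2s2 encodes the beta subunit of eIF2, the GTPase that brings initiator tRNA to the ribosome. Its level was 16.45, 17.47 and 18.17 (lowest, median and highest) in Padi6-mutant embryos, against 14.93, 15.94 and 17.01 in Control embryos. All 9 Padi6-mutant embryos lay above the Control median and 6 of them above every Control embryo. The rise was 2.56-fold (log2 fold change 1.35, SE 0.29, adjusted p = 0.0015 by limma). Eif2s1, for the alpha subunit that the eIF2 kinases phosphorylate, was at 0.19 on the log2 scale (95% interval -0.093 to 0.48, adjusted p = 0.315), and its sign turned under quantile normalization. Eif1, whose product guards the scanning ribosome against wrong start codons, measured 13.44, 14.00 and 14.83 (lowest, median and highest) in Padi6-mutant embryos, against 12.26, 12.68 and 13.80 in Control embryos. Of the 9 Padi6-mutant embryos 6 exceeded the highest Control embryo, and the groups overlapped between 13.44 and 13.80. Its log2 fold change was 1.10 (SE 0.21, adjusted p = 0.000493).

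Eif1b, a gene closely related to Eif1, had a level of 8.60 to 10.41 in Padi6-mutant embryos, against 7.42 to 9.80 in Control embryos, and a log2 fold change of 0.84 (adjusted p = 0.0491). This rise was lost without 14 of the 19 libraries, each left out in turn, and under 5 of the 8 other settings in which it was tested. The coding sequences of the pair are 81.1% identical. Their first 90 coding bases are shown because such differences are what tells reads of the pair apart, with the 13 differing bases in capitals (GENCODE M21 transcripts).
Eif1b: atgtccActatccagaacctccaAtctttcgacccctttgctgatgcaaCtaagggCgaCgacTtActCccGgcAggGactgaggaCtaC
Eif1: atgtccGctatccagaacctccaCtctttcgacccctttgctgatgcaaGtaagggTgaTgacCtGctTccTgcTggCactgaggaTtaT
Eif5b, for the GTPase that joins the ribosomal subunits, rose by 0.55 on the log2 scale (SE 0.19, adjusted p = 0.0342), a call that was lost without any 1 of 9 libraries. Eif1ax had a similar difference of 0.76 that did not pass (adjusted p = 0.092), and Eif5, Eif1a and Eif2a had 0.42, 0.32 and -0.19.

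Eif2d was the member of this group that fell. Its product can deliver tRNA to the ribosome without eIF2 and takes part in recycling of the small subunit. The level was 11.57, 12.27 and 12.87 (lowest, median and highest) in Padi6-mutant embryos, against 12.39, 13.19 and 13.98 in Control embryos. Every Padi6-mutant embryo lay below the Control median, and 5 of 9 lay below the lowest Control embryo. The log2 fold change was -0.86 (SE 0.22, adjusted p = 0.00524). It was -0.66 (adjusted p = 0.0683) without Padi6-mutant 6, 8, 9 and 10, and -0.53 (adjusted p = 0.164) with gene detection as a covariate.

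The 6 genes named Eif1ad and Eif1ad3 to Eif1ad13 were related to eIF1A by name and went different ways. Eif1ad itself, at 11.93 to 12.85 in Padi6-mutant embryos, against 11.19 to 12.54 in Control embryos, rose by 0.62 (SE 0.17, adjusted p = 0.0102). Eif1ad7 was low, at 2.81 to 7.71 in Padi6-mutant embryos, against 6.13 to 9.73 in Control embryos, and fell by 2.00 on the log2 scale (SE 0.61, adjusted p = 0.0175). No Padi6-mutant embryo reached its Control median. Eif1ad3 and Eif1ad13 had log2 fold changes of -2.17 and -3.19 with adjusted p of 0.0538 and 0.051. Eif1ad13 was at 0 in 5 Padi6-mutant and 2 Control libraries, so that its value rests on few embryos. Eif1ad8 and Eif1ad12, both at 0 in 1 Padi6-mutant and 2 Control libraries, had 1.04 and 0.057, with an SE of more than 1 for each. Whether reads were split among these similar genes was not tested.

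The eIF2B complex exchanges GDP for GTP on eIF2, and none of its 5 subunit genes passed the test. Their log2 fold changes were between -0.19 (Eif2b1) and 0.20 (Eif2b4). The widest 95% interval, that of Eif2b2, reached -0.64 to 0.64, and the narrowest, that of Eif2b5, -0.45 to 0.10. With the trend on length and GC content removed Eif2b4 passed, at 0.54 (adjusted p = 0.00122), and at 0.50 with longest transcripts. At an unadjusted p of 0.05, 31 of all 67 genes passed (46.3%). The share of all genes at that p was not counted, so this count is not a result about these genes.

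The 4 eIF2 kinases phosphorylate eIF2 in response to stress and so hold back initiation. Their log2 fold changes were all negative, with a median of -0.54, and 1 of 4 fell. Eif2ak3 encodes PERK, the kinase of the endoplasmic reticulum. It measured 8.97, 9.68 and 10.20 (lowest, median and highest) in Padi6-mutant embryos, against 9.37, 10.17 and 10.98 in Control embryos. Of 9 Padi6-mutant embryos 3 lay below every Control embryo and 1 above the Control median. The log2 fold change was -0.61 (SE 0.22, adjusted p = 0.0408), and the call was lost without any 1 of 11 libraries. Eif2ak1 (the heme-regulated kinase), Eif2ak4 (GCN2, which senses uncharged tRNA) and Eif2ak2 (PKR, which senses double-stranded RNA) had -0.47, -0.27 and -0.88, with adjusted p of 0.0635, 0.345 and 0.512. With gene detection as a covariate 1 of the 4 estimates was positive, and likewise when Padi6-mutant 6, 8, 9 and 10 were left out. It was that of Eif2ak2 (1.00 and 0.29), which was low and at 0 in 1 Padi6-mutant library. All 4 transcripts are over 3000 nt, a class in which the median of all genes was -0.29. With the trend on length and GC content removed the median of the 4 was -0.30 and 0 passed. Eif2ak3 was then at -0.33 (adjusted p = 0.225) and Eif2ak4 at -0.00062.

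Among the 14 genes for eIF3, the scaffold that binds the small subunit, 3 rose, 0 fell and 11 did not pass, and the median log2 fold change was 0.06. Eif3k, a peripheral subunit, measured 13.49, 13.83 and 14.21 (lowest, median and highest) in Padi6-mutant embryos, against 11.48, 12.42 and 13.74 in Control embryos. Of 9 Padi6-mutant embryos 7 exceeded the highest Control embryo, and none was below the Control median. This rise was 1.31 on the log2 scale (SE 0.24, adjusted p = 0.000366). Eif3m rose by 0.58 (SE 0.21, adjusted p = 0.0455), a call kept in 7 of 19 fits that left out a library and in 2 of 9 other settings. The large core subunits did not pass, with -0.32 for Eif3a (adjusted p = 0.089), -0.64 for Eif3b (adjusted p = 0.0924) and 0.019 for Eif3c (adjusted p = 0.942). Eif3l, which pairs with eIF3k in the complex, had -0.42 (SE 0.16, adjusted p = 0.0544), with all 9 Padi6-mutant embryos below the Control median. Under quantile normalization 3 eIF3 genes were lower and 2 higher.

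Eif3j2 had the largest rise of the 67 genes on the log2 scale. It is 1 of a pair of genes for the loosely bound subunit eIF3j, which sits near the mRNA entry channel of the ribosome. Its level was 11.12, 11.42 and 12.24 (lowest, median and highest) in Padi6-mutant embryos, against 7.31, 9.55 and 10.75 in Control embryos. The groups did not overlap. Its log2 fold change was 2.21 (SE 0.42, adjusted p = 0.000431). The other gene, Eif3j1, measured 10.54 to 11.95 in Padi6-mutant embryos, against 10.11 to 12.45 in Control embryos, with a log2 fold change of -0.13 (adjusted p = 0.771). The coding sequences of Eif3j2 (789 bases) and Eif3j1 (783 bases) were identical at all 783 aligned bases in GENCODE M21. Reads that lie within the aligned coding part cannot be assigned to one of them, so both values are uncertain. The log2 of their summed scaled counts was 11.96, 12.23 and 13.10 (lowest, median and highest) in Padi6-mutant embryos, against 10.88, 11.93 and 12.50 in Control embryos. Eif3j2 made up 47.2 to 62.6% of that sum in Padi6-mutant embryos, against 3.20 to 58.2% in Control embryos, so the summed levels overlapped where the level of Eif3j2 alone did not.

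**Figure D2:**
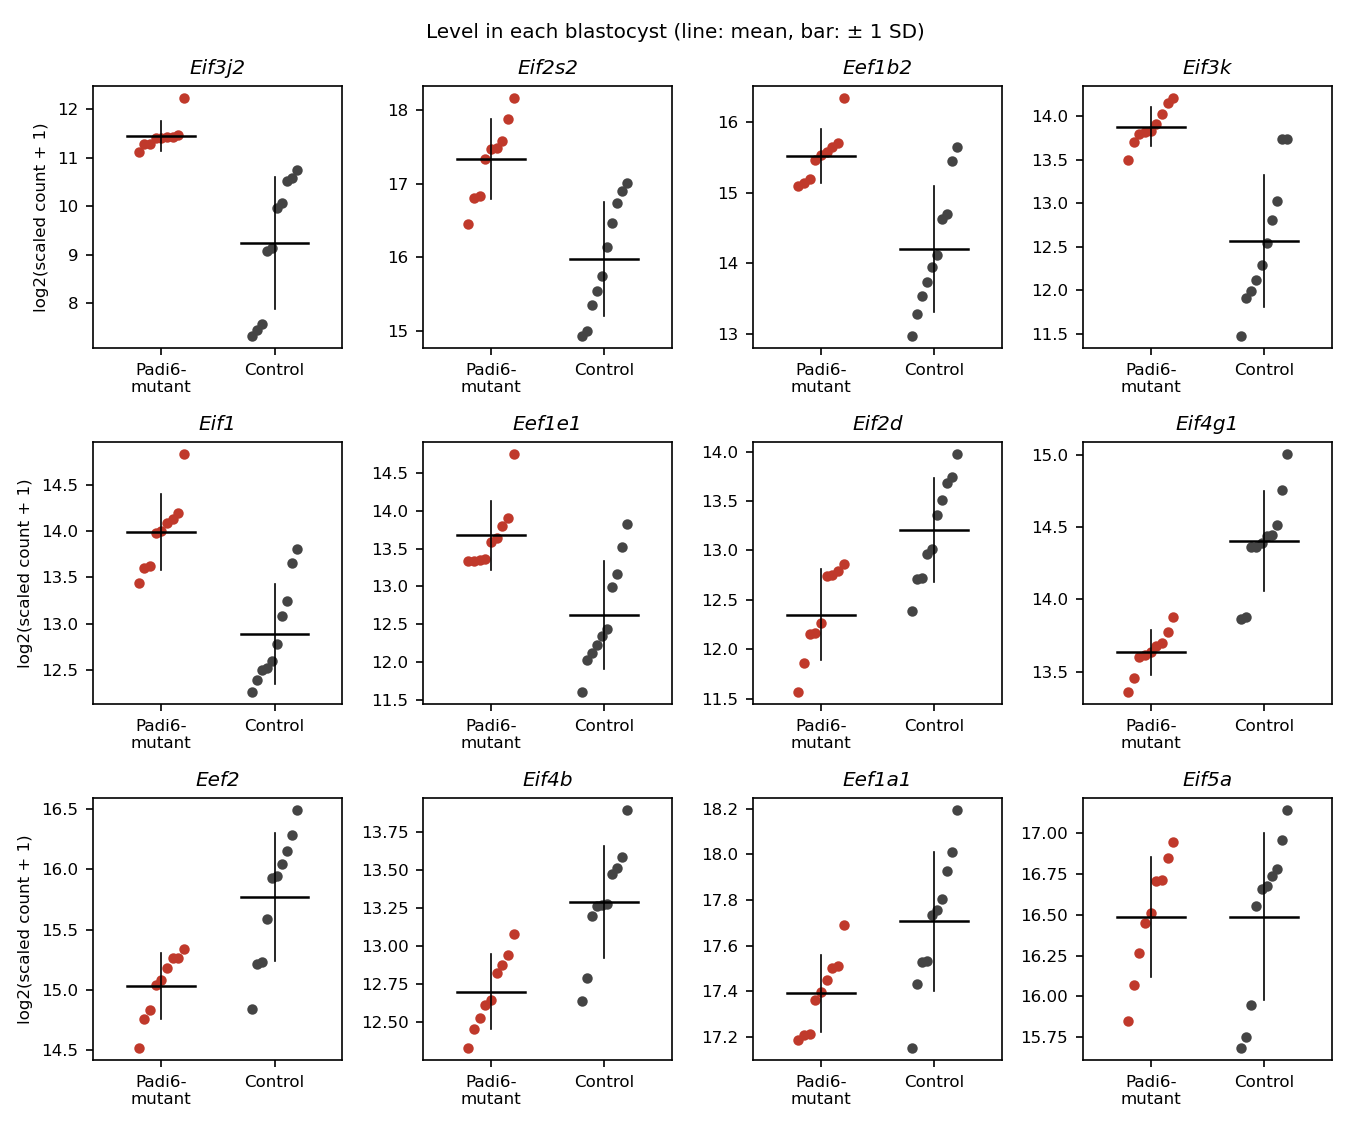
Level of 12 genes in each blastocyst, as log2(scaled count + 1) on the y axis, with Padi6-mutant embryos in red on the left and Control embryos in grey on the right of each panel. Horizontal lines are means and vertical bars 1 SD. Eif3j2 is the gene whose 9 Padi6-mutant embryos (11.12 to 12.24) all exceed the 10 Control embryos (7.31 to 10.75), while Eif5a overlaps throughout.

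The cap-binding complex joins eIF4E, which holds the cap, to the scaffold eIF4G and the helicase eIF4A. Among its 11 genes 1 rose, 2 fell and 8 did not pass. Eif4g1, the main scaffold gene, measured 13.36, 13.64 and 13.88 (lowest, median and highest) in Padi6-mutant embryos, against 13.87, 14.41 and 15.00 in Control embryos. Of 9 Padi6-mutant embryos 8 lay below the lowest Control embryo, and the ranges met at their edges. It fell by 0.77 on the log2 scale (SE 0.14, adjusted p = 0.000359), to 0.587 times the Control level. Eif4b, for the helper protein of the helicase, measured 12.33, 12.65 and 13.08 (lowest, median and highest) in Padi6-mutant embryos, against 12.64, 13.27 and 13.89 in Control embryos. All 9 Padi6-mutant embryos were below the Control median and 4 were below every Control embryo. Its log2 fold change was -0.59 (SE 0.16, adjusted p = 0.00723), and the adjusted p was 0.0843 without Padi6-mutant 6, 8, 9 and 10.

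The rise among the cap-binding genes was in Eif4e2, which encodes a cap-binding protein known mainly as a repressor. Its level was 12.02 to 12.81 in Padi6-mutant embryos, against 10.91 to 12.43 in Control embryos, and its log2 fold change was 0.67 (SE 0.20, adjusted p = 0.0161). Eif4e itself measured 13.14, 13.54 and 14.53 (lowest, median and highest) in Padi6-mutant embryos, against 12.74, 13.39 and 13.95 in Control embryos. A single Padi6-mutant embryo lay above every Control embryo, and the others lay within the Control range. The log2 fold change was 0.18 (95% interval -0.22 to 0.59, adjusted p = 0.511). The coding sequences of Eif4e2 and Eif4e are 54.7% identical.

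Eif4a1 and Eif4a2 encode near-interchangeable forms of the helicase. Eif4a1 measured 15.82, 16.21 and 16.89 (lowest, median and highest) in Padi6-mutant embryos, against 15.79, 16.47 and 17.03 in Control embryos. Of the 9 Padi6-mutant embryos 8 lay below the Control median, and all lay within the Control range. Its difference of -0.20 on the log2 scale did not pass (SE 0.17, adjusted p = 0.41). Eif4a2 measured 14.48, 14.98 and 15.50 (lowest, median and highest) in Padi6-mutant embryos, against 14.32, 14.79 and 15.73 in Control embryos. The groups overlapped fully, with a log2 fold change of 0.012 (95% interval -0.37 to 0.40) whose sign turned under 7 other settings. Eif4g2, a scaffold that does not bind eIF4E and serves cap-independent initiation, measured 13.99, 14.73 and 15.40 (lowest, median and highest) in Padi6-mutant embryos, against 14.19, 14.94 and 15.47 in Control embryos. Its difference was -0.27 on the log2 scale (SE 0.18, adjusted p = 0.292), with 7 of 9 Padi6-mutant embryos below the Control median. Eif4a3, the form found in the exon junction complex, and Eif4h had -0.41 and -0.31 without passing.

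None of the 3 genes for partners of eIF4E passed. Eif4ebp1, the repressor that mTOR phosphorylation releases from eIF4E, measured 12.25, 13.32 and 13.86 (lowest, median and highest) in Padi6-mutant embryos, against 11.28, 12.41 and 13.54 in Control embryos. Of 9 Padi6-mutant embryos 7 were above the Control median and 2 above every Control embryo. On the log2 scale the difference was 0.65 (SE 0.32, adjusted p = 0.138). Its relative Eif4ebp2 had -0.42 (SE 0.19, adjusted p = 0.114), and Eif4enif1, which carries eIF4E into the nucleus, had -0.26. The difference between Eif4ebp1 and Eif4ebp2 was not tested.

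Eif5a encodes the hypusine-bearing factor that helps the ribosome through difficult stretches such as runs of proline. It measured 15.85, 16.51 and 16.95 (lowest, median and highest) in Padi6-mutant embryos, against 15.68, 16.67 and 17.14 in Control embryos. Its difference was -0.0042 on the log2 scale (95% interval -0.44 to 0.44, adjusted p = 0.991). Eif6, for a factor that keeps the large subunit from joining too early, had 0.065 (95% interval -0.49 to 0.62). Eif5a2 was low and variable, at 1.00 to 8.52 in Padi6-mutant embryos, against 0.00 to 7.96 in Control embryos.

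Of the 11 genes named Eef 6 were higher and 1 lower, against 9 higher and 5 lower of the 56 genes named Eif, and the difference between these families was not tested. The elongation factor 1 genes, 5 in number, held 2 of the rises. Eef1b2 encodes the exchange factor that recharges eEF1A with GTP. Its level was 15.09, 15.53 and 16.34 (lowest, median and highest) in Padi6-mutant embryos, against 12.97, 14.04 and 15.64 in Control embryos. All 9 Padi6-mutant embryos were above the Control median and 3 were above every Control embryo. The log2 fold change was 1.32 (SE 0.29, adjusted p = 0.00186), and 0.94 (adjusted p = 0.0742) with gene detection as a covariate. Eef1e1, for a small protein of the aminoacyl-tRNA synthetase complex, measured 13.33, 13.59 and 14.75 (lowest, median and highest) in Padi6-mutant embryos, against 11.61, 12.39 and 13.82 in Control embryos. Of 9 Padi6-mutant embryos 2 exceeded the highest Control embryo and none was under the Control median. Its log2 fold change was 1.05 (SE 0.26, adjusted p = 0.00413), with an adjusted p of 0.0945 in the covariate fit.

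The other exchange subunits did not pass, with 0.57 for Eef1d (adjusted p = 0.0901) and -0.14 for Eef1g (adjusted p = 0.63). Eef1a1, for the tRNA carrier itself, measured 17.19, 17.40 and 17.69 (lowest, median and highest) in Padi6-mutant embryos, against 17.15, 17.74 and 18.19 in Control embryos. All 9 Padi6-mutant embryos were below the Control median, and all lay within the Control range. A difference of -0.32 on the log2 scale did not pass (SE 0.17, adjusted p = 0.173), and under quantile normalization it passed the test.

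Eef2, for the translocase of the ribosome, went the other way from Eef1b2. It measured 14.52, 15.08 and 15.34 (lowest, median and highest) in Padi6-mutant embryos, against 14.84, 15.94 and 16.49 in Control embryos. No Padi6-mutant embryo reached the Control median, and 3 lay below the lowest Control embryo. The difference was -0.74 on the log2 scale (SE 0.20, adjusted p = 0.0081), which is 0.599 times the Control level. With gene detection as a covariate its adjusted p was 0.0940. Eef2k, for the kinase that inactivates eEF2, measured 7.29 to 9.60 in Padi6-mutant embryos, against 7.71 to 10.95 in Control embryos, and its difference of -0.67 on the log2 scale did not pass (SE 0.37, adjusted p = 0.189).

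All 4 genes for methyltransferases of elongation factors rose, with log2 fold changes of 0.76 to 1.76. Eef1akmt1, for an enzyme that methylates lysine in eEF1A, measured 10.84, 11.60 and 12.36 (lowest, median and highest) in Padi6-mutant embryos, against 9.59, 10.39 and 11.56 in Control embryos. Of 9 Padi6-mutant embryos 5 exceeded the highest Control embryo. It rose by 1.04 on the log2 scale (SE 0.26, adjusted p = 0.00447). Eef1akmt2, for another such enzyme, measured 10.30, 10.98 and 11.57 (lowest, median and highest) in Padi6-mutant embryos, against 8.73, 9.95 and 11.26 in Control embryos. Every Padi6-mutant embryo lay above the Control median and 1 of them above the Control maximum, and the log2 fold change was 0.90 (SE 0.27, adjusted p = 0.0178). Eef2kmt, for the enzyme that methylates eEF2, rose by 0.76 on the log2 scale (adjusted p = 0.00816), with 7 of 9 Padi6-mutant embryos above every Control embryo. Eef1akmt4 was low, at 7.58 to 9.68 in Padi6-mutant embryos, against 3.91 to 9.39 in Control embryos. It rose by 1.76 on the log2 scale (SE 0.59, adjusted p = 0.0312). This call was lost without any 1 of 6 libraries and was kept in 4 of 8 other settings. With gene detection as a covariate 1 of these 4 genes was called, and without Padi6-mutant 6, 8, 9 and 10 it was 1 as well. With the trend on length and GC content removed it was also 1.

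**Figure D3:**
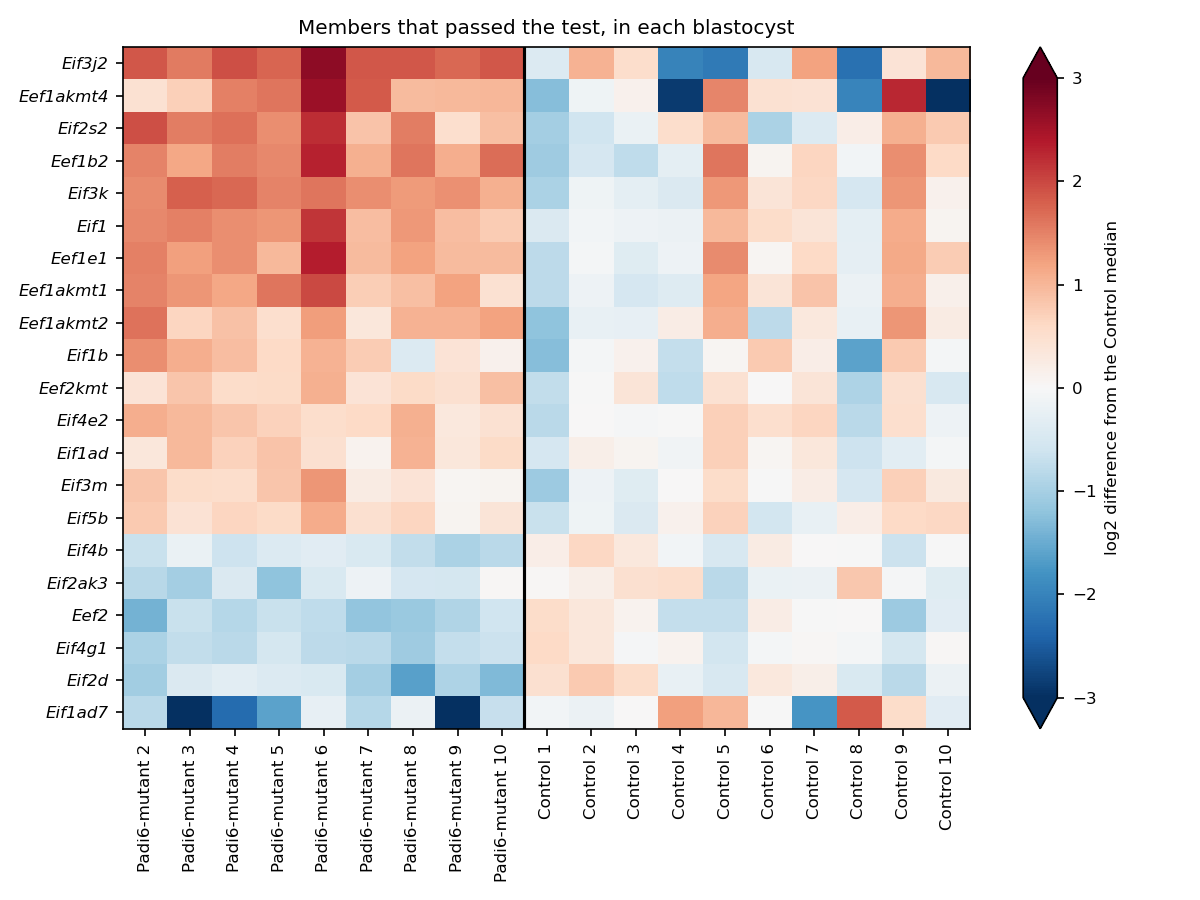
The 21 genes that passed the test (rows) in each blastocyst (columns, Padi6-mutant left of the black line), coloured by the log2 difference from the median of the Control embryos, red for higher and blue for lower. Control 5 and Control 9 lie above the Control median in 14 of the 15 genes that were higher, and Control 1 in 0 of 15.

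The counts of called genes per embryo describe genes picked by the same comparison and add no support to it. In 8 of 9 Padi6-mutant embryos all 15 of the genes that rose lay above the Control median, and in Padi6-mutant 8 it was 14. Control embryos ranged more widely. Control 5 and Control 9 had 14 of the 15 above the median of their own group and Control 7 had 13, while Control 1, 2 and 8 had 0, 3 and 2. Of the 6 genes that fell, Control 5, 9 and 10 had 5 below the Control median, and Control 1, 2 and 3 had 1. Control 5 and Control 9 therefore stood nearest to the Padi6-mutant embryos in both sets. They also had the largest scaled totals among Control libraries, 49.2 M and 46.1 M, and whether the totals bear on these values was not tested. Without Control 5, or without Control 9, 17 of the 67 genes were higher, and the share of all genes in these fits was not counted.

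Transcript length was known for 62 of the 67 genes and for 94.2% of all genes, from the shortest principal transcript in GENCODE M21. Of 14 genes with transcripts of up to 1500 nt, 7 rose and 0 fell, against 37.4% and 2.66% of all genes of that length. Of 31 genes over 1500 and up to 3000 nt, 7 rose and 1 fell (8.02% and 12.4% of all genes), and of 17 genes above 3000 nt, 1 rose and 4 fell (4.20% and 18.5%). The median log2 fold changes of the 3 classes were 0.55, -0.0016 and -0.26 for these genes and 0.62, -0.20 and -0.29 for all genes. Across genes, which are not independent replicates, Spearman's rho between length and log2 fold change was -0.36 over the 62 genes and -0.36 over all 13357 genes with a length. With the longest transcript of each gene it was -0.45 over the 62 genes and -0.34 over all genes.

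With each library's trend on length and GC content removed, 12 of 62 genes were higher and 5 lower (background 10.6% and 10.2%), and 12 of 20 earlier calls remained. The 5 genes newly called were Eif2b4 and Eef1d, which were higher, and Eif4a3, Eif4g2 and Eif5a, which were lower. Eif2s2, Eif3j2 and Eif1 were at 1.28, 2.14 and 0.82 on the log2 scale (adjusted p = 0.000639, 0.00237 and 0.000805). These 3 calls were kept. Eif3k (774 nt) came to 0.38 (adjusted p = 0.0374), and Eef1akmt1 (880 nt) came to 0.18 and Eef1akmt2 (1107 nt) to 0.12, neither past the threshold (adjusted p = 0.443 and 0.65). Among the falls Eif4g1 (5444 nt) came to -0.36 (adjusted p = 0.0116) and Eef2 (3089 nt) to -0.30 (adjusted p = 0.0782). For Eif4g2 and Eif5a the result rested on the transcript used. With the shortest transcripts (742 and 775 nt) they were at -1.24 and -0.95 (adjusted p = 0.00323 and 6.14e-05), and with the longest (7995 and 1437 nt) at -0.19 and -0.13 (adjusted p = 0.268 and 0.572).

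**Figure D4:**
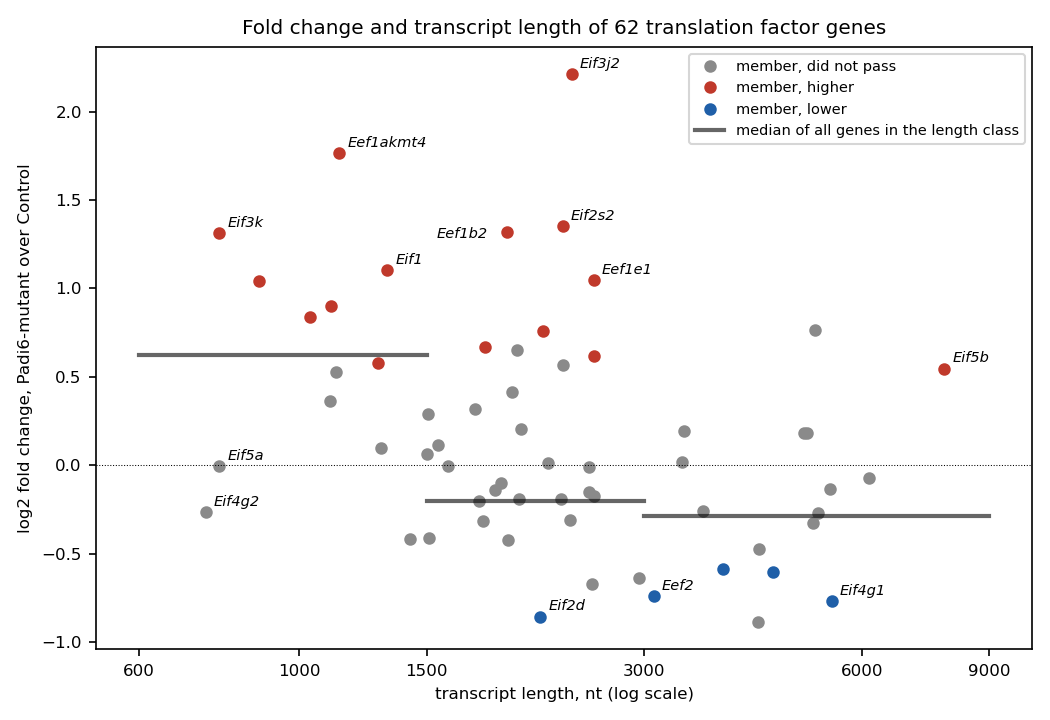
Log2 fold change of Padi6-mutant over Control embryos (y axis) against transcript length on a log scale (x axis) for the 62 genes with a known length, in red where higher, in blue where lower and in grey where they did not pass. Black lines are the medians of all genes up to 1500 nt (0.62), over 1500 and up to 3000 nt (-0.20) and over 3000 nt (-0.29), and Eif3j2, Eif2s2 and Eef1b2 stand well above the line of their class.

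Per kilobase of the shortest principal transcript, the same 5 genes had the highest mean levels in both groups (Eif5a, Eef1a1, Eif4a1, Eif4g2 and Eif2s2). Eif4g2 owed its place to a transcript of 742 nt. With its longest transcript (7995 nt) it had 3409 scaled counts per kilobase in Padi6-mutant embryos and 4097 in Control embryos, where its rank was 24. Eef1a1 came to 96427 ± 11342 scaled counts per kilobase in Padi6-mutant embryos and 121641 ± 25237 in Control embryos, and Eif5a to 121630 ± 29218 scaled counts per kilobase in Padi6-mutant embryos and 125056 ± 39813 in Control embryos (SD, n = 9 and 10). The levels of these 2 genes overlapped within their spread, and the place of Eif5a also depends on the transcript length used. Eif4a1 had 44348 ± 10489 scaled counts per kilobase in Padi6-mutant embryos and 51043 ± 11758 in Control embryos, which ranked 4 in Padi6-mutant embryos and 3 in Control embryos. Eif2s2 had 76150 ± 28012 scaled counts per kilobase in Padi6-mutant embryos and 31765 ± 16326 in Control embryos. It ranked 3 in Padi6-mutant embryos and 5 in Control embryos, and Eef2, with 11011 ± 1971 scaled counts per kilobase in Padi6-mutant embryos and 19186 ± 6518 in Control embryos, ranked 16 in Padi6-mutant embryos and 7 in Control embryos.

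Promoters of some genes that rose and of some that fell are shown to let their sequences be set side by side. Each is given from 60 bases before to 10 after the annotated RefSeq start (GRCm38.p6, 5′ to 3′ on the gene's strand). Capitals mark the 3 motifs searched for on both strands, which do not overlap one another: CCGGAAG of ETS factors such as GABPA, TATAAA of the TATA box and GGGCGG of SP1. Eif2s2 (chr2:154892897-154892966, minus strand), Eef1b2 (chr1:63176771-63176840, plus strand) and Eif1 (chr11:100319889-100319958, plus strand) rose. Eif2d (chr1:131153147-131153216, plus strand), Eif4g1 (chr16:20672667-20672736, plus strand) and Eef2 (chr10:81176571-81176640, plus strand) fell.
Eif2s2: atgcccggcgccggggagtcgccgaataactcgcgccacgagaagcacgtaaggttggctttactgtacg
Eef1b2: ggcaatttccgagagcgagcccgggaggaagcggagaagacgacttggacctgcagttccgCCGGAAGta
Eif1: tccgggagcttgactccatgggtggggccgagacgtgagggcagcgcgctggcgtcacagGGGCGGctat
Eif2d: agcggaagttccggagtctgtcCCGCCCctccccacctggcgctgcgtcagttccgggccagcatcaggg
Eif4g1: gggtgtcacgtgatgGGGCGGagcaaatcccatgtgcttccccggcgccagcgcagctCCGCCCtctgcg
Eef2: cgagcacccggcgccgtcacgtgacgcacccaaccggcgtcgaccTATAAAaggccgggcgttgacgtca
A RefSeq promoter was matched by symbol for 49 of the 67 genes and for 9575 of all listed genes. In the full window, 250 bases before to 50 after the start, CCGGAAG was found in 30.6% of the 49, against 19.6% of all. TATAAA was found in 8.16%, against 6.80%, and GGGCGG in 71.4%, against 64.4%. In the windows shown, the letters of the TATA motif occur in Eef2 and those of the ETS motif in Eef1b2. The same windows were read for Eif3k, Eef1e1 and Eef1akmt2, which rose, and for Eif2ak3 and Eif4b, which fell. These held none of the 3 motifs and are not shown, so the windows shown are richer in motifs than all those read. A match is a description of these letters and not of a factor's binding.

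Other groups of translation genes, 4 in all, were read beside these, and hold 17 genes that passed. Of these 17, 4 passed with gene detection as a covariate and 9 without Padi6-mutant 6, 8, 9 and 10, and of the 15 with a length 6 passed with the length and GC trend removed. Of 9 genes for termination, recycling and ribosome rescue, 3 rose and 0 fell (14.6% and 12.0% of all genes). The rises were in Mcts2, Mcts1 and Denr. MCTS1 and DENR form the dimer that, like eIF2D, takes tRNA and the small subunit apart after termination. Denr measured 11.83, 12.82 and 13.43 (lowest, median and highest) in Padi6-mutant embryos, against 11.29, 11.71 and 12.82 in Control embryos. Each Padi6-mutant embryo lay above the Control median. On the log2 scale it rose by 0.83 (SE 0.22, adjusted p = 0.00834). Mcts1 had 1.21 (SE 0.36, adjusted p = 0.0171) and Mcts2, an imprinted copy of it, 2.26 (SE 0.30, adjusted p = 8.70e-06), and both are uncertain in so far as reads from the 2 copies could be exchanged. With the length and GC trend removed Mcts1 was at -0.08. In the same embryos Eif2d, which has related domains and a related task, was lower.

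Of 8 listed genes for poly(A)-binding proteins and partners, 2 rose and 1 fell (14.6% and 12.0% of all genes). Paip2, which keeps the poly(A)-binding protein off the mRNA, rose by 1.05 (SE 0.21, adjusted p = 0.000624), though it was at -0.23 with the length and GC trend removed (0.63 with longest transcripts). Larp4b had 0.53 (adjusted p = 0.03), a call lost without any 1 of 6 libraries. Larp1, which binds mRNAs with a terminal oligopyrimidine tract, fell by 0.67 on the log2 scale (SE 0.17, adjusted p = 0.00511), and with the trend removed it was at -0.27 (adjusted p = 0.3). Of 22 genes for upstream signals and modifiers, 1 rose and 8 fell (14.6% and 12.0% of all genes), and the median log2 fold change was -0.42. Of the 7 falls with a known length, 2 passed with the length and GC trend removed. Rptor, the mTORC1 subunit that recruits substrates such as 4E-BP1, measured 10.06, 10.73 and 10.91 (lowest, median and highest) in Padi6-mutant embryos, against 10.79, 11.58 and 12.40 in Control embryos. Every Padi6-mutant embryo was below the Control median, and the log2 fold change was -0.95 (SE 0.21, adjusted p = 0.00219), and -0.45 with the trend removed (adjusted p = 0.0227). Ppp1r15a and Ppp1r15b, for the subunits that direct a phosphatase to eIF2, fell by 1.04 and 0.63 on the log2 scale (adjusted p = 0.00623 and 0.011). With the trend removed they were at -0.67 and -0.42 and did not pass (adjusted p = 0.0567 and 0.0724). Pdcd4, for an inhibitor of eIF4A, was the gene of the list that rose and is named after its values were seen, with 1.16 (adjusted p = 0.0179).

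The 11 mitochondrial translation factor genes held 1 that was higher and 1 that was lower (14.6% and 12.0% of all genes). Mtrfr, for a ribosome rescue factor of the organelle, had a log2 fold change of 0.93 (adjusted p = 0.0167), and Gfm2, for its recycling factor, -0.44 (adjusted p = 0.0472). The call of Gfm2 was lost without any 1 of 13 libraries, and it was at -0.27 with the trend removed (adjusted p = 0.167). The median over the 11 was 0.09, against 0.01 for the 67 cytosolic genes.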

How the data were processed

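The deposited table holds, per the file's values, log2 values made by the authors as log2(scaled count + 1), with whole scaled counts and the same upper quartile in all 19 libraries. Per the submitters' processing notes, Trim Galore 0.4.4, HISAT2 2.1.0 and GRCm39 were used; the counting tool and annotation are not given in the sources used here, so reads of near-identical copies may be exchanged. Padi6-mutant and Control libraries were compared with limma 3.58.1 in R 4.3.3 (trended moderated test, two-sided, no covariate) over all 14173 genes. Benjamini-Hochberg adjustment was used, with a threshold of 0.05. The fit was also run on simulated independent normal values. These hold no length trend, detection difference or effect shared within an embryo, so they cannot show how the fit handles those. Fold changes are differences between group means of log2(scaled count + 1). In low genes the added 1 can shrink a change, while values at or near 0 can enlarge it. With a pseudocount of 16, Eif1ad13 was at -1.58 and Eif1ad7 at -1.65, against -3.19 and -2.00 as reported.

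The genes, lists, roles and alternatives were chosen with earlier results of these data known. Full statistics were planned for the 8 largest rises and falls among called genes whose mean exceeded the median gene mean, and for 9 genes whatever their p (Eif4a1, Eif4a2, Eif4e, Eif4ebp1, Eif4g1, Eif4g2, Eif5a, Eef1a1 and Eef2). From each other list up to 3 genes with the smallest adjusted p were planned. Alternatives were quantile and median-of-ratios scaling, a pseudocount of 16, genes above the median mean, detected genes as a covariate, a replicate block, removal of a length and GC trend (lowess span 0.3), leaving out 4 libraries, and leaving out each library. Lengths and coding sequences came from GENCODE M21 and promoters from RefSeq GRCm38.p6, builds other than the submitters'. Read depth is known only in part, since 1 count could be sized in 13 of 19 libraries.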

Additional observations from a re-analysis of the deposited data

Results flagged for a closer look

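In 110 groups of values over 55 genes, 6 values stood apart from the other embryos of their group by a Dixon test, which chance alone does in about 1 of 20 groups. Of the 6 values, 5 belong to Padi6-mutant 6, the library with the most genes at 0 (596) and the largest scaled total (53.1 M). In that embryo Eef1b2 was at 16.34, against 15.71 in the next highest Padi6-mutant embryo. Eef1e1 was at 14.75, against 13.90. Eif3j2 was at 12.24, against 11.48, and Paip2 at 14.40, against 13.68. Ppp1r15b was at 10.34, below the next lowest value of 11.12. The remaining value was that of Eif1ad13 in Padi6-mutant 7, at 6.32, where the next highest Padi6-mutant embryo had 2.81. Without Padi6-mutant 6 the calls of Eef1b2, Eef1e1 and Eif3j2 remained.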

How the results depend on the processing

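Of the 21 genes that passed, 6 passed under every alternative in which they were tested and without each library in turn (Eif2s2, Eif3k, Eif1, Eif1ad7, Eif4g1 and Eif3j2), and 16 passed without each library in turn. Eif1ad7 had values in 6 alternatives, none with the length and GC trend removed. No alternative tested how reads were divided between Eif3j2 and Eif3j1, so the value of Eif3j2 stays uncertain. Leaving out 1 library at a time gave 11 to 17 genes higher and 5 to 9 lower, and the shares of all genes in these fits were not counted. With gene detection as a covariate 6 were higher and 3 lower, and quantile normalization gave 14 lower (1946 of all 14173 genes). The fit with the number in the sample titles as a replicate block covered the numbers both groups share. It gave 8 higher (1541 of all 14173 genes) and kept 12 of the 21 calls. Same-numbered libraries correlated at -0.07 to 0.15 in their deviations from the group means, so the numbers were not taken to pair the embryos.

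Leaving aside the fits without 1 library, the sign turned under at least 1 alternative for 23 of the 67 genes, and 1 of the 53 turned values passed: Eif3h, at 0.096 as reported, was at -0.33 (adjusted p = 0.049) with the trend removed on longest transcripts. Some of the others follow. Eif4a2 was at -0.39 under quantile normalization, -0.0132 under median-of-ratios scaling, -0.30 with the covariate, -0.00486 with the replicate block, -0.0429 and -0.0631 with the length and GC trend removed (shortest and longest transcripts) and -0.24 without Padi6-mutant 6, 8, 9 and 10. Eif4e was at -0.20 with the covariate and -0.0433 without those libraries. Eif2s1 was at -0.15, Eif3c at -0.13 and Eif3e at -0.035 under quantile normalization, and Eef1g was at 0.12 and Eif1a at -0.057 with the covariate. With the trend removed on longest transcripts, an alternative chosen after seeing the data, Eif3m was at -0.0782, Eif3i at -0.0718, Eef1akmt2 at -0.0285 and Mcts1 at -0.17; with shortest ones Mcts1 was at -0.0818 and Paip2 at -0.23. Leaving out 1 library moved Eif5a over -0.0938 to 0.0755 and Eif4a2 over -0.0564 to 0.10. The causes were not tested. The 5 Eif1ad genes without a length had no value with the trend removed.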
